A study of Mus musculus with 8 samples.

Results

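The CC chemokines are small secreted proteins with a pair of adjacent cysteines, and 10 of their genes were followed here in primary murine microglia with and without lipopolysaccharide (LPS), a component of the outer membrane of Gram-negative bacteria. The members were chosen by name as Ccl2, Ccl3, Ccl4, Ccl5, Ccl6, Ccl7, Ccl9, Ccl12, Ccl17 and Ccl22, matched by symbol to the Ensembl gene IDs, and make up 10 of the 52636 IDs in the count table, of which 25424 had at least 1 count. Microglia of wild-type (WT) C57BL/6 mice were grown with 10% serum and 10 ng/ml CSF-1, a growth factor that keeps macrophages alive, and received either vehicle or 5 µg/ml LPS. After 24 h, total RNA of 4 biological replicates per group was sequenced. According to the methods of the study, such cells were shaken off mixed glial cultures of neonatal brain, so they are cultured cells outside the brain that had grown on a layer of astrocytes.

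CC chemokines leave the cell, bind to matrix and act through G protein-coupled receptors on leukocytes, which move up the gradient. Ccl2, Ccl7 and Ccl12 act on Ccr2 and call in monocytes, Ccl3, Ccl4 and Ccl5 attract monocytes, T cells and NK cells, Ccl6 and Ccl9 act on Ccr1, as do Ccl3 and Ccl5, and Ccl17 and Ccl22 act on Ccr4 of T cells. In microglia and other macrophages LPS is sensed by Tlr4, which turns on NF-kB and interferon signalling, and several of these ligand genes are known targets of both.

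Library totals ranged from 20071921 to 30604447 counts. Of the 13847 genes with enough counts to be tested, 8877 (64.1%) passed an adjusted p of 0.05 in edgeR's quasi-likelihood test, 4191 higher and 4686 lower after LPS, so that a call by itself sets a gene little apart. Higher calls made up 47.2% of all calls after TMM scaling, 39.6% after upper quartile scaling and 19.0% with library totals alone. Of the 10 microglial marker genes, 8 were lower and 1 higher after LPS, and their summed level was 7770 to 10596 CPM (counts scaled to a common library size after TMM) with vehicle and 2907 to 3280 CPM with LPS. All 6 T and NK cell markers stayed at or under 3 counts in every library, the floor below which no level was read. Other lists moved with LPS: the 5 endothelial markers summed to 31.0 to 73.5 CPM with vehicle and 163 to 254 CPM with LPS, with 3 of 3 tested genes higher but Cldn5 and Tek at the floor. Flt1 was the largest part of that sum in every library. The border macrophage and monocyte markers, nearly all Mrc1, summed to 529 to 945 CPM and 33.5 to 48.6 CPM. Of 7 tested astrocyte markers 3 were lower and 1 was higher, Gja1, with 0.639 to 1.07 CPM and 28.9 to 98.1 CPM. The part of such cells in the chemokine changes was not tested. In such bulk RNA, fewer cells of a type and less RNA per cell cannot be told apart.

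Replicate number 3 stood apart in both groups. Vehicle replicate 3 had the highest CPM of its group in 7 of the 8 members that were above the floor with vehicle, and LPS replicate 3 in 6 of these 8. In the 7, vehicle replicate 3 was from 1.01 times (Ccl3) to 3.86 times (Ccl12) the next vehicle library. The members share these libraries, so the counts are not independent. The 5 fibroblast markers summed to 3.68 CPM in vehicle replicate 3 against 0.0710 to 1.47 CPM in the other vehicle libraries, and to 20.9 CPM in LPS replicate 3 against 5.14 to 7.08 CPM, but different genes carried the sums. In vehicle replicate 3 these were the collagen genes (Col1a1 at 1.49 CPM) and in LPS replicate 3 Dcn (19.4 CPM) and Lum (1.40 CPM), with Col1a1 and Col3a1 at 0.0933 and 0.0466 CPM and Col1a2 at 0. Oligodendrocyte lineage markers went the other way, with 19.6 CPM in vehicle replicate 3 against 44.8 to 56.3 CPM and 3.26 CPM in LPS replicate 3 against 10.5 to 14.7 CPM. Astrocyte markers were lowest in vehicle replicate 3 (20.01 CPM against 37.6 to 46.9 CPM), but not in LPS replicate 3. Neuron markers were lowest in both (1.84 against 4.91 to 6.39 CPM with vehicle, 1.77 against 2.12 to 5.51 CPM with LPS). The border macrophage and monocyte sum was 945 CPM in vehicle replicate 3 and 529 to 605 CPM in the other vehicle libraries. The microglial sum was highest in vehicle replicate 3 (10596 against 7770 to 8827.5 CPM), but not in LPS replicate 3. The endothelial sum was lowest in LPS replicate 3 (163 against 235 to 254 CPM), but not in vehicle replicate 3. Whether these differences have a part in the chemokine levels of replicate 3 was not tested, and results that move with these libraries are given with and without them.

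The members lie in 3 stretches of the genome (GRCm38). Ccl2 (chr11:82035571-82037453), Ccl7 (chr11:82045712-82047525) and Ccl12 (chr11:82101845-82103400) follow each other on the plus strand of chromosome 11. Some 1422 kb further on come Ccl5 (chr11:83525778-83530518), Ccl9 (chr11:83572919-83578636), Ccl6 (chr11:83587882-83593087) and Ccl3 (chr11:83647844-83649355) on the minus strand and Ccl4 (chr11:83662584-83664683) on the plus strand. Ccl22 (chr8:94745590-94751699) and Ccl17 (chr8:94810453-94812036) lie 58.8 kb apart on chromosome 8. All are protein-coding genes, their exons overlap those of no other annotated gene, and no stretch of 50 bases of their transcripts recurs in another gene, except for 59 of the 2996 windows of Ccl9 (1.97%).

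Upstream sequence was at hand from RefSeq (GRCm38.p6) for 6 of the 10 members, namely Ccl3, Ccl6, Ccl9, Ccl12, Ccl17 and Ccl22. The 250 bases before the start of the 4 of these that were above the floor in both groups are shown because the genes differed widely in their response, from a few-fold for Ccl6 and Ccl9 to over 40-fold for Ccl3 and Ccl12. Each is written 5′ to 3′ on the strand of its gene, and capitals mark matches on either strand to TATAAA (the TATA box), the NF-kB consensus and a looser form of it (GGG and CC with any 5 bases between them), TGANTCA (AP-1) or GAGGAA (PU.1).
Ccl3, chr11:83649379-83649628, minus strand: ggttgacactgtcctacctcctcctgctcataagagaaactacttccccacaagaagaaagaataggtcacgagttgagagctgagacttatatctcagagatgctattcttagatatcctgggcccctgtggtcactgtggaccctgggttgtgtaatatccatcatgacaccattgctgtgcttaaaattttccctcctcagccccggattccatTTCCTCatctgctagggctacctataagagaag
Ccl12, chr11:82101595-82101844, plus strand: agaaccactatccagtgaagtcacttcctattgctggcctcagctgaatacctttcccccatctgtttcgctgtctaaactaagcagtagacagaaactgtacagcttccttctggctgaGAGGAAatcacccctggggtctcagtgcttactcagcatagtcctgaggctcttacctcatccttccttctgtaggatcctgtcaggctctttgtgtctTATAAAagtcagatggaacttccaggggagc
Ccl9, chr11:83578637-83578886, minus strand: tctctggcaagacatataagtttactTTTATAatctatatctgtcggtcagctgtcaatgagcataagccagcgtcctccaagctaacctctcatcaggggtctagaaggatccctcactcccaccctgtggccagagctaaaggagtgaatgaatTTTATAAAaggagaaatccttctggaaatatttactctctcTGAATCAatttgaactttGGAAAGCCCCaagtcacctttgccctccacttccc
Ccl6, chr11:83593088-83593337, minus strand: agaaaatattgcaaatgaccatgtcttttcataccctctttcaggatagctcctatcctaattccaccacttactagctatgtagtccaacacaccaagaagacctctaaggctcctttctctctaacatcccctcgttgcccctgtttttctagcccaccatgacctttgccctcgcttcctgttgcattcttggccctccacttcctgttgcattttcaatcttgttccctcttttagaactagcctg

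Positions are counted from the RefSeq start, which differs from the GENCODE start given above for Ccl3 and Ccl22. Ccl12 had a TATAAA at -31 to -26, and Ccl9 had 3 matches to it, of which 2 overlap each other, the nearest at -92 to -87. TATAAA was present in 12.4% of the 32851 upstream windows of the same length in all genes. The NF-kB consensus was found in 3.90% of all windows and among the 6 members in Ccl9 alone, at -35 to -26 on the opposite strand, where it coincides with a match to its looser form. That looser motif is held by 45.8% of all windows and among the members by Ccl9 and Ccl22. Ccl9 also held TGANTCA at -53 to -47, as did 6.75% of all windows. GAGGAA was held by Ccl3 at -33 to -28, by Ccl12 at -130 to -125 and by Ccl17, and by 23.3% of all windows. None of the 6 windows had TTTC repeated after any 2 bases, the core of the interferon-stimulated element, which 2.98% of all windows hold. Ccl6 had no match to any of these motifs. The longest run of bases shared between any 2 of the 6 windows was gccctccacttcc, of 13 bases, in the neighbours Ccl6 (from -55) and Ccl9 (from -14). These matches describe the letters only.

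Of the 10 members, 8 were above the floor in both groups, and all 8 were called higher after LPS, where 64.1% of all tested genes were called, 30.3% higher and 33.8% lower. In each of the 8, every LPS library lay above every vehicle library, as did 28.7% of all tested genes. The fitted log2 fold changes ran from 1.77 for Ccl6 to 8.68 for Ccl7. Ccl22 passed the filter on low counts through its LPS libraries alone, so its call is left out of these counts, and Ccl17 did not pass it. The median log2 fold change over all tested genes was -0.11, below that of each of the 8 members. Together the members held 0.0974 to 0.148% of a library's counts with vehicle and 1.64 to 2.07% with LPS.

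**Figure D1:**
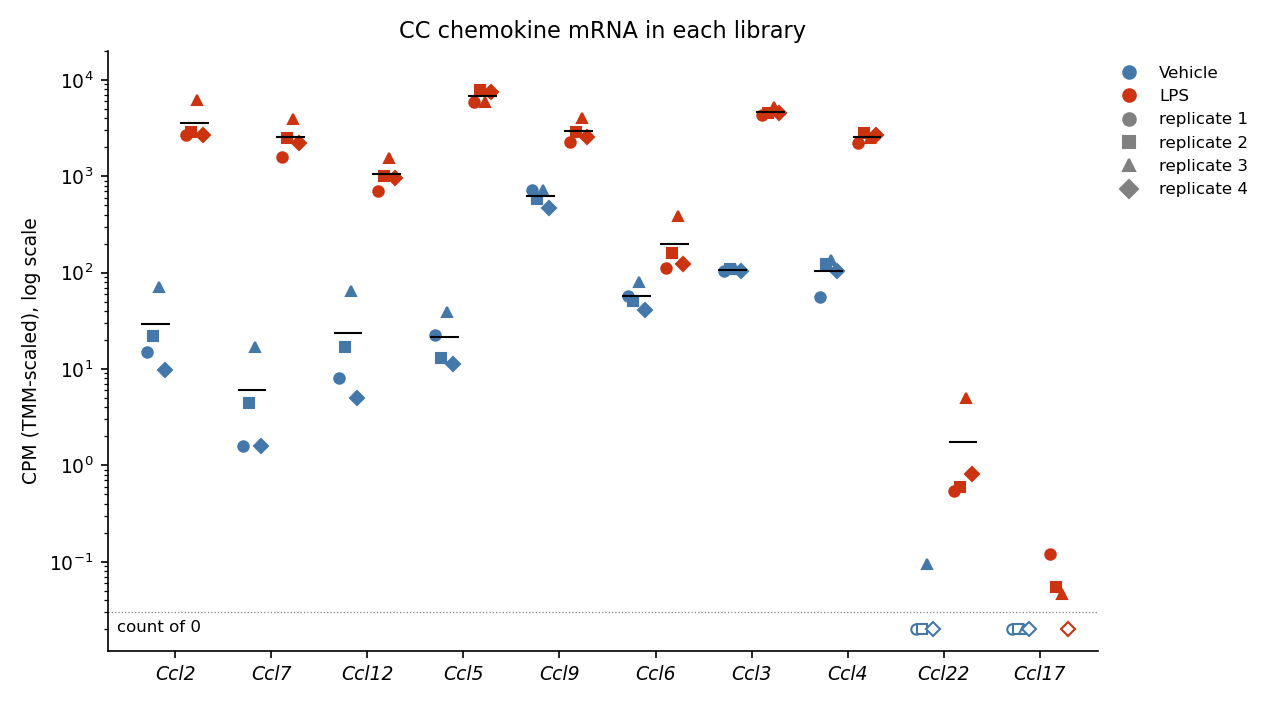
CPM on TMM-scaled library sizes, on a log scale, of the 10 members in each of the 4 vehicle and 4 LPS libraries, with 1 marker shape per replicate, a bar at the mean of groups above the floor, and open markers for a count of 0. The groups are apart in all members but Ccl17, and the triangles of replicate 3 are highest with vehicle in Ccl2, Ccl7, Ccl12, Ccl5, Ccl6, Ccl3 and Ccl4.

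Among the monocyte attractants, Ccl2, the main ligand of Ccr2, rose after LPS. With vehicle it measured 15.1, 22.0, 70.1 and 9.73 CPM in replicates 1 to 4, and with LPS 2648, 2868, 6139 and 2662 CPM. Replicate 3 was the highest in both groups, 4.49 times the mean of the other vehicle libraries and 2.25 times that of the other LPS libraries, and the groups did not overlap. The change was 6.93 on the log2 scale (SE 0.74, n = 4 per group, edgeR adjusted p = 3.11e-05), the 109th largest rise of all tested genes. It was 7.89 without vehicle replicate 3 and 7.53 without both libraries of replicate 3.

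Ccl7, a close relative of Ccl2 that acts on several CC receptors, had the largest fold of the members. It measured 1.58, 4.43, 16.9 and 1.60 CPM with vehicle and 1584, 2488, 3878 and 2190 CPM with LPS in replicates 1 to 4. Vehicle replicate 3 was 3.82 times the next vehicle library, and the lowest LPS library was still far above it. Its log2 fold change of 8.68 (SE 0.93, edgeR adjusted p = 3.25e-05) ranked 54th among the rises of all tested genes. Without vehicle replicate 3 the change was 10.01, and without both libraries of replicate 3 it was 9.76.

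Ccl12, a mouse ligand of Ccr2, had 8.09, 16.8, 64.8 and 5.04 CPM with vehicle and 698, 1009, 1538 and 962 CPM with LPS in replicates 1 to 4. Here too replicate 3 was highest on both sides, 6.50 times the mean of the other vehicle libraries and 1.73 times that of the other LPS libraries, without overlap between groups. It rose by 5.47 on the log2 scale (SE 0.82, edgeR adjusted p = 0.000267). The value was 6.77 without vehicle replicate 3, 6.56 without both libraries of replicate 3, and 6.09 (SE 0.50, edgeR adjusted p = 2.65e-05) with the replicate number as a block. For these 3 neighbours of the Ccl2 cluster the fold between same-numbered libraries varied widely, from 87.5 to 274 for Ccl2, from 229 to 1371 for Ccl7 and from 23.7 to 191 for Ccl12, each time lowest in replicate 3.

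Ccl3, an inflammatory ligand of Ccr1, was the steadiest member. Its vehicle libraries held 103, 109, 109.7 and 105 CPM in replicates 1 to 4, and its LPS libraries 4346, 4533, 5238 and 4574 CPM. Both groups were tight, with a coefficient of variation of 2.97% with vehicle and 8.34% with LPS, and vehicle replicate 3 was only 1.04 times the mean of the others. The log2 fold change of 5.45 (SE 0.15) had the smallest adjusted p of the members (edgeR, 3.75e-08), and the fold between same-numbered libraries stayed within 41.8 to 47.7.

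Ccl4, encoded 13.2 kb from Ccl3 on the other strand, attracts monocytes and T cells. Its levels in replicates 1 to 4 were 56.2, 124, 136 and 103 CPM with vehicle and 2193, 2813, 2482 and 2649 CPM with LPS. Replicate 1 was the lowest in both groups and the groups did not overlap. The change was 4.60 on the log2 scale (SE 0.29, edgeR adjusted p = 1.20e-06), and same-numbered libraries differed 18.3-fold to 39.0-fold.

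Ccl5, which attracts T cells, monocytes and eosinophils, combined a low vehicle level with a high level after LPS. It measured 22.6, 12.9, 38.8 and 11.2 CPM with vehicle and 5882, 7842, 5843 and 7454 CPM with LPS in replicates 1 to 4. Replicate 3 was the highest vehicle library and the lowest LPS library, so that the fold between same-numbered libraries was 151 there and 261 to 666 in the others. The log2 fold change was 8.30 (SE 0.49, edgeR adjusted p = 9.00e-07), and 8.90 without both libraries of replicate 3. The group means were 21.4 ± 12.6 CPM with vehicle and 6755 ± 1043 CPM with LPS (SD, n = 4).

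The Ccr1 ligands Ccl9 and Ccl6, found in rodents and next to each other on chromosome 11, changed least. Ccl9 measured 723, 578, 714 and 462 CPM with vehicle and 2258, 2862, 4044 and 2580 CPM with LPS in replicates 1 to 4. Replicate 4 was the lowest vehicle library and replicate 3 the highest LPS library, and the groups did not overlap. The change was 2.25 on the log2 scale (SE 0.23, edgeR adjusted p = 2.41e-05), or 3.12-fold to 5.67-fold between same-numbered libraries.

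Ccl6 had 57.1, 50.6, 80.5 and 41.0 CPM with vehicle and 111, 161, 389 and 122 CPM with LPS in replicates 1 to 4. The groups came close, with 80.5 CPM in vehicle replicate 3 and 111 CPM in LPS replicate 1, and LPS replicate 3 was 2.96 times the mean of the other LPS libraries. Its change of 1.77 on the log2 scale (SE 0.40) had the largest adjusted p of the members (edgeR, 0.00345). The change was 1.20 without LPS replicate 3 and 1.48 (SE 0.17, edgeR adjusted p = 0.000182) without both libraries of replicate 3.

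**Figure D2:**
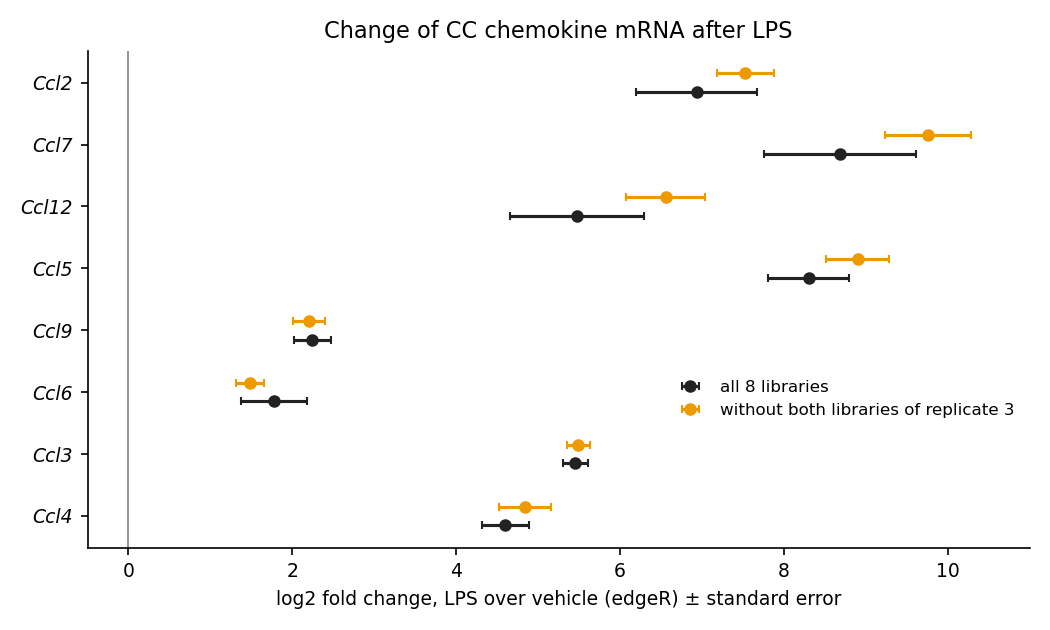
Log2 fold change of LPS over vehicle from edgeR, with its standard error as a bar, for the 8 members above the floor in both groups, from all 8 libraries (black) and without both libraries of replicate 3 (orange). Ccl9 and Ccl6 lie near 2, Ccl3 and Ccl4 near 5 with little change between the fits, and Ccl2, Ccl7, Ccl12 and Ccl5 shift to the right without replicate 3.

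The Ccr4 ligands, Ccl22 and Ccl17, which draw T cells and are typical products of dendritic cells and of macrophages exposed to interleukin-4, were at or near the floor. Ccl22 had 0, 0, 3 and 0 counts in vehicle replicates 1 to 4 and 9, 11, 107 and 15 counts in LPS replicates 1 to 4. Every LPS library exceeded the vehicle libraries, but 1 library, LPS replicate 3, held most of the counts. Against the floor of 3 counts per vehicle library, which is 0.0952 to 0.107 CPM, the mean LPS level was at least 16.9-fold higher, and at least 6.33-fold higher without LPS replicate 3. Since its vehicle libraries were at the floor and it entered the test only through the LPS libraries, no p is given. In LPS replicate 3 the dendritic cell markers summed to 17.9 CPM against 5.14 to 6.64 CPM in the other LPS libraries, of which Xcr1 alone was 17.7 CPM, while Flt3, Cd209a and Siglech were at the floor in all libraries, and Zbtb46 and Clec9a were at 0 and 0.0933 CPM in that library. The part of such cells in the Ccl22 counts was not tested.

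Ccl17 had no count in the vehicle libraries and 2, 1, 1 and 0 counts in LPS replicates 1 to 4. Both groups were at the floor, so no fold is given, and a difference was not detectable at this depth.

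Levels of different members were compared as CPM per kilobase of exon. With vehicle the order began with Ccl9 at 203 ± 40.6, Ccl4 at 159 ± 53.0 and Ccl3 at 139 ± 4.13 CPM per kb (SD, n = 4). The range of Ccl4 overlapped with those of Ccl9 and Ccl3, while every library of Ccl9 was above every library of Ccl3. A gap followed, and every library of Ccl3 was above every library of Ccl12, the next in order with 44.1 ± 51.9 CPM per kb. Ccl12, Ccl6 (31.9 ± 9.37), Ccl2 (25.7 ± 24.4), Ccl5 (22.3 ± 13.2) and Ccl7 (7.65 ± 9.13 CPM per kb) overlapped each with the next, and Ccl7 was above the floored Ccl22 and Ccl17 in every library.

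After LPS the order was another. Ccl5 led with 7037 ± 1086 and overlapped with Ccl3 at 6100 ± 509 CPM per kb, and both were above Ccl4 (3840 ± 401) in all libraries. Ccl4, Ccl7 (3165 ± 1213), Ccl2 (3145 ± 1502), Ccl12 (1959 ± 655) and Ccl9 (964 ± 256 CPM per kb) each overlapped with the next in range. Within each LPS library, however, Ccl2 was above Ccl12 and Ccl12 above Ccl9, in 4 of 4. Ccl6 followed below all libraries of Ccl9 with 109 ± 72.8 CPM per kb, and Ccl22 below all of Ccl6.

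**Figure D3:**
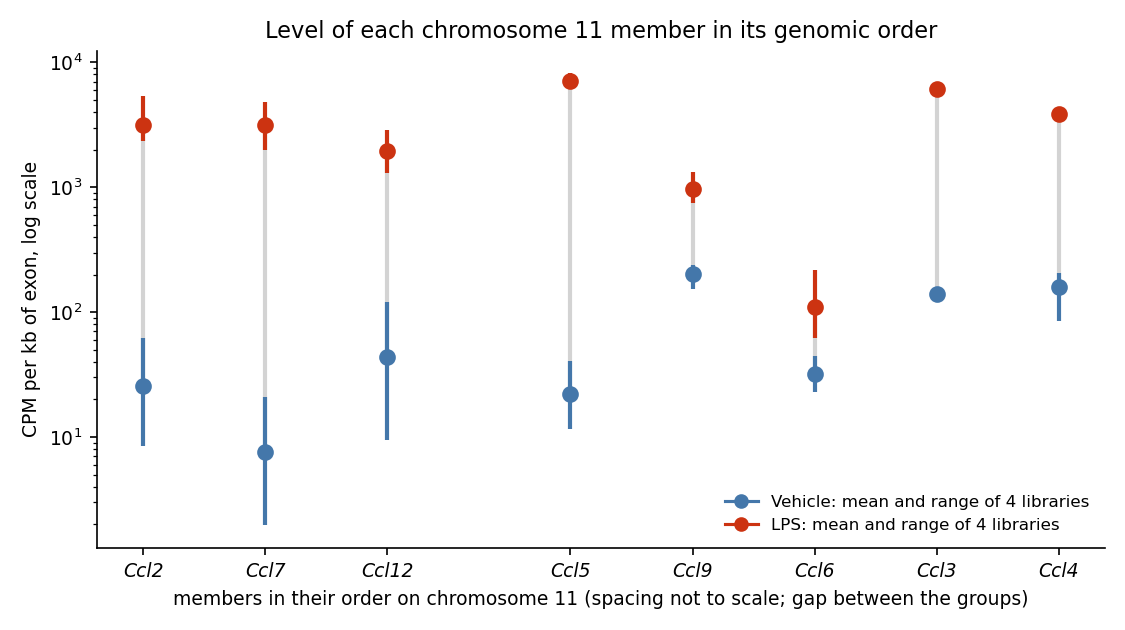
CPM per kilobase of exon, on a log scale, of the 8 members on chromosome 11 in the order in which they lie there, as the mean (dot) and range (bar) of 4 vehicle libraries (blue) and 4 LPS libraries (red). The grey line spans the change, which is short for the neighbours Ccl9 and Ccl6 and long for Ccl5 on one side and Ccl3 on the other.

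The make-up of the chemokine counts changed with treatment. Ccl9 provided 64.2 ± 6.45% (SD, n = 4) of the members' counts with vehicle, 58.0 to 73.3% in the single libraries, and between 11.1 and 13.7% with LPS. Ccl5 provided 2.09 ± 0.81% with vehicle and 28.4 ± 5.85% with LPS, with 19.8 to 32.1% in the single LPS libraries. Ccl3 went from 11.3 ± 2.25% to 19.5 ± 1.89% and Ccl2 from 2.74 ± 2.03% to 14.3 ± 4.38%. Ccl7 held 0.56 ± 0.56% with vehicle and 10.2 ± 2.15% with LPS, while Ccl4 held 5.70 to 13.9% with vehicle and 8.40 to 11.4% with LPS. LPS replicate 3 differed from the other LPS libraries by more Ccl2 (20.8%) and less Ccl5. These are shares of counts, in which a longer mRNA gives more counts.

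**Figure D4:**
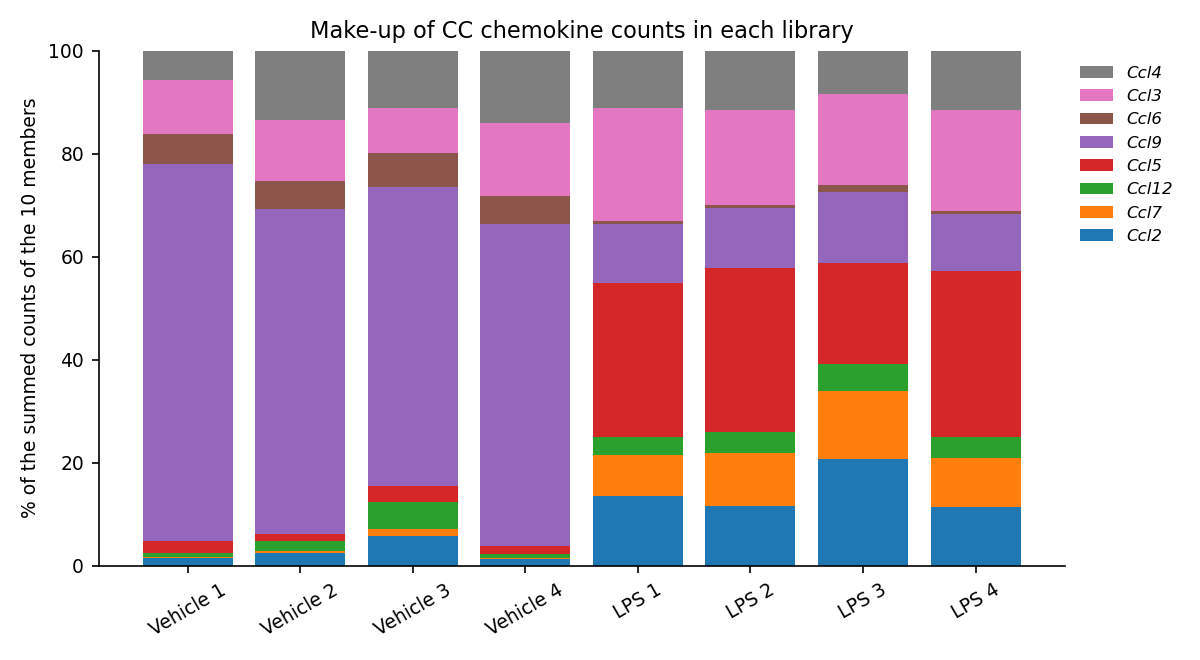
Percent of the summed counts of the 10 members that each member takes in each of the 8 libraries, with Ccl22 and Ccl17 too small to be drawn. Ccl9 takes 58.0 to 73.3% of the bar in the vehicle libraries and 11.1 to 13.7% in the LPS libraries, where Ccl5, Ccl3 and Ccl2 take more.

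Ratios of 2 members within a library do not depend on scaling between libraries, and 7 pairs that lie in the same stretch were compared. Ccl7 had 0.197 to 0.319 counts per count of Ccl12 in the vehicle libraries and 2.27 to 2.52 in the LPS libraries, a shift of 3.21 in the log2 ratio. Ccl2 had 4.15 to 9.51 counts per count of its neighbour Ccl7 with vehicle and 1.15 to 1.67 with LPS, a difference of -2.08. Against Ccl12 the difference for Ccl2 was 1.14, with 1.08 to 1.93 counts per count with vehicle and 2.77 to 3.99 with LPS. For Ccl5 against Ccl9 the ratio was 0.0224 to 0.0544 with vehicle and 1.44 to 2.89 with LPS, a shift of 6.24. In these 4 pairs the groups did not overlap, and each had the smallest p that 4 against 4 libraries allow (exact permutation test over 70 divisions, two-sided, p = 0.0286), which adjusted over the 7 pairs was 0.05 and not under the threshold. Adjusted over the 6 pairs above the floor, a choice made after seeing the data, it was 0.0429. With replicates paired by number it was 0.125 and with any 1 library left out 0.08 to 0.1, where so few libraries cannot reach the threshold.

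The pairs Ccl3/Ccl4 and Ccl6/Ccl9 showed smaller shifts. The log2 ratio of Ccl3 to Ccl4 was 0.10 ± 0.53 (SD, n = 4) with vehicle and 0.89 ± 0.18 with LPS, a difference of 0.78 that did not pass (exact permutation p = 0.0857, adjusted 0.1). Ccl6 against Ccl9 went from -3.45 ± 0.22 to -4.07 ± 0.47, a difference of -0.61 that did not pass either (exact permutation p = 0.114, adjusted 0.114). The pair of Ccl17 and Ccl22 could not be compared because both genes were at the floor with vehicle.

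**Figure D5:**
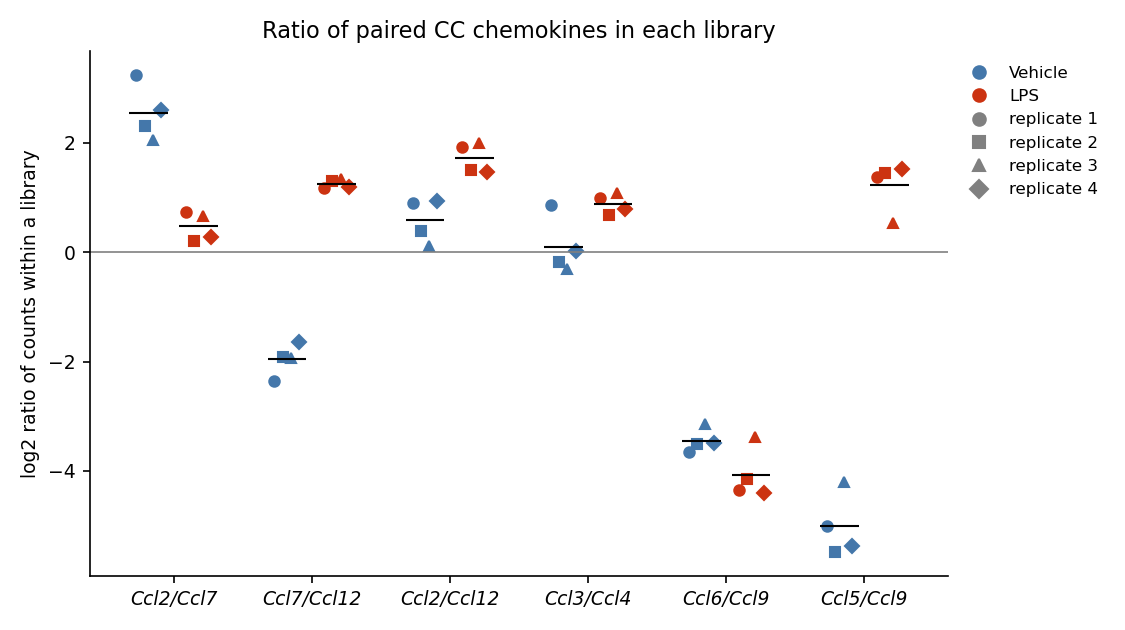
Log2 ratio of counts of 2 members within each library for 6 pairs, with 1 marker shape per replicate, vehicle in blue and LPS in red, and a bar at the group mean. The groups are apart for Ccl2/Ccl7, Ccl7/Ccl12, Ccl2/Ccl12 and Ccl5/Ccl9 and overlap for Ccl3/Ccl4 and Ccl6/Ccl9.

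Of 13 further CC ligand genes, 12 were in the table and 3 could be tested. Ccl8, which lies beside Ccl12 and attracts monocytes, rose by 3.29 on the log2 scale (SE 0.92, edgeR adjusted p = 0.0108), with 44, 39, 461 and 12 counts in the vehicle replicates and 284, 1035, 1431 and 677 in the LPS replicates. Its change was 5.36 (SE 0.59, adjusted p = 8.63e-05) without vehicle replicate 3, 5.12 without both libraries of replicate 3, and 4.09 (SE 0.63, adjusted p = 0.000772) with the replicate number as a block. Vehicle replicate 3 was thus the highest of its group for Ccl8 as well. Ccl25, a thymic and gut ligand of Ccr9, was higher by 1.78 (SE 0.28, adjusted p = 0.000421) at 0.782 ± 0.196 CPM with vehicle and 2.69 ± 0.54 CPM with LPS. Ccl24, a ligand of Ccr3, had 29, 27, 70 and 19 counts in the vehicle replicates and 3, 16, 7 and 7 in the LPS replicates. It passed the filter on low counts through the vehicle libraries alone, so no p is given. The fitted log2 fold change of Ccl24 was -1.46 (SE 0.53). It was -0.93 without vehicle replicate 3 and -0.78 without both libraries of replicate 3. Ccl1, Ccl11, Ccl19, Ccl20, Ccl21a, Ccl21b, Ccl26, Ccl27a and Ccl28 were at the floor in all libraries.

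Of the 14 CC and atypical receptor genes reported here 5 were tested, with 2 higher, 1 lower and 2 not passing, a share of calls near the 64.1% of all tested genes. Ccrl2, an atypical receptor that holds chemerin at the cell surface, rose from 16.2 ± 4.14 to 367 ± 94.5 CPM (log2 fold change 4.50, SE 0.25, edgeR adjusted p = 5.82e-07). Ccr1, a receptor of Ccl3, Ccl5, Ccl6 and Ccl9, rose from 24.6 ± 20.1 to 271 ± 246 CPM (3.46, SE 0.72, adjusted p = 0.002), with 13625 counts in LPS replicate 3 and 2107 to 3737 in the other LPS libraries, and its change was 2.60 (SE 0.55) without LPS replicate 3 and 4.22 (SE 0.68) without vehicle replicate 3.

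Ccr3, a receptor of Ccl5 and Ccl7 known from eosinophils, was lower, with 28.2 ± 8.85 CPM and 7.74 ± 2.27 CPM (log2 fold change -1.86, SE 0.26, edgeR adjusted p = 0.000187). Ccr2, the receptor of Ccl2, Ccl7 and Ccl12 and a marker of monocytes, stood at 2.40 ± 0.55 and 3.56 ± 0.74 CPM and did not pass (0.57, SE 0.25, adjusted p = 0.0692). Ccr2 passed without vehicle replicate 3 (0.76, edgeR adjusted p = 0.0280) or LPS replicate 1 (0.71, adjusted p = 0.0285). It also passed without both libraries of replicate 3 (0.70, edgeR adjusted p = 0.0397). Ccr9 did not pass (0.24, SE 0.49, adjusted p = 0.684). Ccr4, the receptor of Ccl17 and Ccl22, was not tested and had 0 counts with vehicle and 0 to 4 with LPS, and Ccr6, Ccr8 and Ackr2 were at the floor. Ccr1l1, Ccr7, Ccr10, Ackr1 and Ackr4 were above the floor but had too few counts to be tested.

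Among 22 genes of the LPS, NF-kB and interferon pathways that act on chemokine genes, 21 were tested. Of these 14 were higher, beside 30.3% higher of all tested genes, and 5 did not pass. The fit counted 2 as lower, but 1 of them, Irf4, entered the test through the vehicle libraries alone. With single libraries left out 12 to 15 were higher and 2 to 3 lower, counts from which Irf4 was not left out. Without both libraries of replicate 3, 17 were higher, with Relb, Irf3 and Irf8 gaining a call. Irf7, an interferon-induced transcription factor, rose most (log2 fold change 3.54, SE 0.37, edgeR adjusted p = 3.03e-05), followed by Nfkbia, the inhibitor of NF-kB that NF-kB itself induces (3.00, SE 0.20, adjusted p = 1.71e-06), and Stat2, which carries interferon signals (1.99, SE 0.24, adjusted p = 6.71e-05). The 2 lower genes were Tlr4 itself (-1.17, SE 0.28, adjusted p = 0.00487) and Irf4, a factor of the interleukin-4 response. Irf4 had 42, 77, 113 and 88 counts in the vehicle replicates and 2, 2, 6 and 4 in the LPS replicates. Its LPS libraries were at or near the floor and it passed the filter through the vehicle libraries alone, so no p is given. Ifnb1, with 2 to 7 counts with vehicle and 0 to 15 with LPS, was not tested.

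Of 12 genes for proteases and for factors that act on mRNAs, 10 were tested. Of these 4 were higher, 3 lower and 3 did not pass, near the 64.1% called of all tested genes. The RNase Zc3h12a (log2 fold change 3.74, SE 0.21, edgeR adjusted p = 6.44e-07) and Zfp36, which binds AU-rich elements (2.69, SE 0.15, adjusted p = 7.38e-07), rose, as did the protease Mmp14 (2.55, SE 0.57, adjusted p = 0.00311). Zfp36l1, a relative of Zfp36, was lower (-1.71, SE 0.22, adjusted p = 9.71e-05), as were the sheddases Adam10, with 360.3 ± 23.5 CPM and 179.6 ± 23.6 CPM (adjusted p = 6.61e-05), and Adam17 (-0.58, SE 0.11, adjusted p = 0.00128). Dpp4 and Ctsg were at the floor.

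For each member above the floor in both groups, the gene outside the list with the most similar profile was sought among 10648 tested genes, by the root mean square distance of log2 CPM from the vehicle mean over the 8 libraries. The closest match was that of Ccl9 with Ppfibp2, a scaffold protein gene, at 0.0862 on the log2 scale. Ccl6 matched Cd86, a costimulatory protein of antigen-presenting cells (0.188), Ccl3 matched Pfkfb3, a regulator of glycolysis (0.209), Ccl2 matched Slfn1 (0.237), Ccl12 matched Ms4a4c (0.315) and Ccl4 matched Isg20, an interferon-induced exonuclease (0.356). Matches were looser for Ccl5 with Edn1, which encodes endothelin (0.456), and for Ccl7 with Slfn4 (0.690). Edn1 stood at 0.126 CPM with vehicle, near the floor of about 0.1 CPM, so its match rests on few vehicle counts. For Ccl22, at the floor with vehicle, no match is given. Among the members themselves the closest profiles were those of the neighbours Ccl6 and Ccl9 (0.540) and Ccl3 and Ccl4 (0.652), followed by Ccl2 and Ccl12 (0.859).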

How the data were processed

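Per the labels, libraries were made with a stranded mRNA kit and read as single ends of 50 bases, while the study's methods name another kit and sequencer. The authors deposited raw counts per Ensembl gene, not normalized, from reads aligned uniquely to GRCm38 with GSNAP in HTSeqGenie 4.30. The annotation release and the use of strand in counting are not given in the sources used here. Symbols and exons came from GENCODE vM21. Counts were fitted with edgeR 4.0.16 in R 4.3.3 (TMM, filterByExpr at its settings of 10 counts per library and 15 in total, quasi-likelihood test, two-sided, Benjamini-Hochberg over all tested genes), with SE as the log2 fold change over the square root of F. The fit was tested on simulated data. Ratios of members had 0.5 added to each count. The labels number the samples as biological replicates. Floors cover counting error only, with 3 counts per library as the limit, and the depth of 20071921 to 30604447 counts per library sets it at about 0.1 CPM.

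The members, lists and the rule for named genes (all members, listed genes that could be tested, at most 3 regulators per direction and the nearest profile of each member) were chosen with earlier results of these data known. Deviations from group means of same-numbered libraries correlated with r = 0.373, 0.196, 0.171 and 0.108 for replicates 1 to 4 over 8010 genes, all over 0.1 (the exchanged pairs of replicates 2 and 4 gave 0.146 and 0.137), so the numbers were treated as pairs in an alternative fit with a replicate block. No source says whether same-numbered libraries share a culture, and the labels name no library batch. Other alternatives were DESeq2 1.42.0, other scalings and filters, and leaving out each library. Leaving out both libraries of replicate 3 was added after seeing the data. Upstream sequence came from RefSeq, and that of Ccl2, Ccl4, Ccl5 and Ccl7 was not used here. A gene of the receptor list is not reported here.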

Additional observations from a re-analysis of the deposited data

Results flagged for a closer look

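In the 17 groups of 4 libraries examined, 2 held a library that lay far from the other 3 by Dixon's ratio of gap to range, which chance gives in about 1 of 20 groups. Ccl2 in LPS replicate 3 stood at 6139 CPM, with a gap of 0.937 of the range. Ccl22 in LPS replicate 3 stood at 4.99 CPM, with a gap of 0.939 of the range, from 107 counts. In the same library the fibroblast marker Dcn (19.4 CPM) and the dendritic cell marker Xcr1 (17.7 CPM) were highest, while the collagen markers and Flt3, Zbtb46, Clec9a, Cd209a and Siglech were at or near 0.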

How the results depend on the processing

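In every alternative fit the 8 members above the floor in both groups kept direction and call. The weakest was Ccl6 with library totals alone (log2 fold change 1.05, edgeR adjusted p = 0.0191). The calls of Ccl22 are left out here as well. DESeq2 gave no adjusted p for Ccl22. Library totals alone moved the median of all genes by -0.68 and upper quartile scaling by -0.16, and with library totals 1988 genes were higher, 8457 lower and 6 pathway genes lower, and the fold of each tested member shrank by 1.57 to 1.65 times. Requiring 10 counts in every library removed Ccl24 and Irf4 and left 1 pathway gene lower. Counts of lower pathway genes in the other fits do not leave out Irf4. The count of further lower ligands, which was Ccl24 alone, was 0 to 1 when single libraries were left out and 0 without replicate 3. DESeq2 called 4 receptors higher, and 3 were higher without both libraries of replicate 3. No filter on low counts left 2 receptors lower, and 1 to 2 were lower when single libraries were left out. With a prior count of 3 the ratio shifts were -2.04, 3.18, 1.14 and 6.23 (exact permutation, adjusted p = 0.04). The unadjusted p of these shifts was already the smallest possible, and the adjustment over 7 pairs includes the floored pair of Ccl17 and Ccl22. The 0.04 is therefore not read as a pass. Over 6 pairs the shifts were -2.08, 3.21, 1.14 and 6.24 (0.0429). The replicate block gave an adjusted p of 0.125, single libraries left out 0.08 to 0.1 and both of replicate 3 left out 0.117. Without the 100 most abundant genes the members held 0.163% of counts with vehicle and 2.79% with LPS. A replicate block called 9044 genes, gave 6.09 for Ccl12 and changed no call of a member. Among the listed genes Stat6 lost its call under it and Mmp12 gained one.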

Other observations

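Genes that lie among the members, looked up after values had been seen, did not all move with them. Heatr9 (chr11:83511736-83522175, minus strand), which lies 3602 bases downstream of Ccl5, had 0, 1, 1 and 1 counts in vehicle replicates 1 to 4 and 113, 246, 475 and 303 counts in LPS replicates 1 to 4. Against the floor of 3 counts per vehicle library it was at least 143-fold higher. E230016K23Rik, a noncoding transcript that spans Ccl6 on the opposite strand, had 5 to 7 counts with vehicle and 36 to 99 with LPS. The fitted log2 fold change was 4.25 (SE 0.36). It passed the filter on low counts through its LPS libraries alone, so no p is given. Cx3cl1, the membrane-bound ligand of Cx3cr1 that lies between Ccl22 and Ccl17, did not pass the test (log2 fold change -0.58, SE 0.40, edgeR adjusted p = 0.225). Ccl11 and Ccl1, in the Ccl2 stretch, were at the floor.

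Ccr7, the receptor that guides dendritic cells to lymph nodes, had no count in any vehicle library and 5, 14, 11 and 9 counts in the LPS replicates 1 to 4, and did not pass the filter on low counts. Of the neutrophil markers, S100a8 reached 572 to 1173 CPM after LPS and Camp 0.325 to 2.99 CPM, while Ly6g, S100a9 and Ngp were at the floor in all libraries.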
